A study of Drosophila melanogaster with 2 samples.

Results

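The gene aop (anterior open, also called Yan; FBgn0000097) encodes the protein that was mapped here, in a form tagged with eGFP, and the peaks assigned to the gene itself are described. Peaks were taken as members when the summit, the position of highest signal, lay in the aop gene body or had an aop transcription start site (TSS) as the nearest protein-coding one. By that rule 20 of the 1692 peaks on the 7 chromosome arms belonged to aop in the thresholded list made from both replicates. A further 33 of its 1725 peaks lay on unplaced sequence and were left out. The conservative list held 17 aop peaks of 1446, replicate 1's own list 12 of 604 and replicate 2's own list 20 of 1122. The ranked list of candidates from which the thresholded peaks were drawn held 56 aop members of 145057.

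Chromatin immunoprecipitation followed by sequencing had been done in Drosophila melanogaster of the strain aop-GFP, as whole embryos collected at 0 to 24 h of age, a span that covers all of embryogenesis. The only group consisted of 2 biological replicates, both expressing aop fused to eGFP and both precipitated with an antibody against GFP, from chromatin sonicated to 200 to 800 bp. The labels call the strain an insertion that targets aop, without giving its place, the DNA it carries, its number of copies or whether the untagged gene remained. A whole embryo mixes all tissues and stages, so a peak does not say in which cells the protein was bound. With 1 group there was no contrast to test, and all values are descriptions. The lists give no read counts, which leaves the sequencing depth unknown, and control libraries were not analysed here.

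The aop protein is a transcriptional repressor with an ETS domain, which binds DNA at a GGAA core, and a SAM domain, through which it forms polymers. Receptor tyrosine kinase signalling through the MAP kinase rolled (rl) leads to its phosphorylation and export from the nucleus, and the ETS activator pointed (pnt) competes for the same kind of site. In Drosophila the pair is known as a switch that holds cells undifferentiated until a signal arrives, for example in the eye, the mesoderm and the nervous system.

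The gene lies on the minus strand of arm 2L at chr2L:2156484-2178754 in the dm6 assembly (22271 bp). Its 5 annotated transcripts start at 2 sites 17227 bp apart. Transcripts RB, RC and RE start at the distal site (2178754) with a shared exon of 908 bp that is 5' UTR, and RA and RD start at the proximal site (2161527). Coding sequence runs from 2158168 to 2160491, so both start sites lead to the same coding exons. In RB and RE an intron of 17264 bp separates the distal first exon from the first coding exon, and the proximal start site lies inside it. Peaks are numbered 1 to 20 here from the proximal start site outwards, against the direction of transcription.

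The windows from 100 bp before to 100 bp after 4 of the 20 summits follow, on the gene's strand. Peaks 1, 2 and 12 are shown because they carried the strongest signals of the locus. Peak 6 is shown because, like peak 14, it held a pair of CGGAA matches. Capitals mark CGGAA, which contains the GGAA core, on either strand, so that TTCCG is the same motif read from the other strand. The windows are chr2L:2161613-2161813 (peak 1), chr2L:2162371-2162571 (peak 2), chr2L:2164047-2164247 (peak 6) and chr2L:2171739-2171939 (peak 12), all in the intron of 17264 bp and without UTR bases.
aop peak 1: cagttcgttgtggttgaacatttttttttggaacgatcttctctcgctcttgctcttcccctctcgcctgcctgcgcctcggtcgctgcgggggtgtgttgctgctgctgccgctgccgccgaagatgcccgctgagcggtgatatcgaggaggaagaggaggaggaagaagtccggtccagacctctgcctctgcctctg
aop peak 2: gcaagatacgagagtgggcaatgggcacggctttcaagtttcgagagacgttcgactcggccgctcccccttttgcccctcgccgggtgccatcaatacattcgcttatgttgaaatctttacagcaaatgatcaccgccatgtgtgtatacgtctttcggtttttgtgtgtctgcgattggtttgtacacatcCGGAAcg
aop peak 6: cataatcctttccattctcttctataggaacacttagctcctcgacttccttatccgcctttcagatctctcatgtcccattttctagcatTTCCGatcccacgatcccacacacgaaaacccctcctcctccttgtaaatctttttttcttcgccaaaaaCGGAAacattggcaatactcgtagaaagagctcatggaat
aop peak 12: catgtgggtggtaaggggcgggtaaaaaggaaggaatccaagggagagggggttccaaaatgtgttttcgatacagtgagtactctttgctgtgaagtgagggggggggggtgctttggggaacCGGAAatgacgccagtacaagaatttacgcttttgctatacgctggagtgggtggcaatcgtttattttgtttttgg

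The data show that aop-eGFP peaks were spread through nearly the whole distance between the start sites and a little beyond the distal one. From the first summit to the last they spanned 21151 bp, with a median gap of 736 bp between neighbouring summits (lowest 215 bp, highest 3466 bp). The annotated gene body held 7.63 peaks per 10 kb, beside 0.123 per 10 kb over all arms. Of the 20 summits, 17 lay in the gene body and 3 upstream of the distal start site, and none lay in coding sequence or the 3' UTR. Signal here means the enrichment value that the authors deposited for each peak, in an unstated unit, on a scale that may differ between lists. At aop its median was 86.3, against 64.8 for the whole thresholded list, and 13 of the 20 peaks were above the list's median.

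The strongest binding stood just upstream of the proximal start site. Peak 1 (chr2L:2161599-2161834), with its summit 186 bp upstream of that site, had a signal of 544, rank 6 of 1725. In the replicates' own lists the same place had 152 in replicate 1 (rank 15 of 628) and 386 in replicate 2 (rank 4 of 1142). Peak 2 (chr2L:2162301-2162672), 944 bp upstream, had 406, with 136 in replicate 1 and 255.9 in replicate 2. Peak 5 (chr2L:2163601-2163739), 2160 bp upstream, had 267, with 115.1 in replicate 1 and 156 in replicate 2. These peaks belong to a dense group: 9 of the 20 summits lay within 5 kb upstream of the proximal start site.

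The interior of the long intron held an isolated strong peak. Peak 12 (chr2L:2171754-2171967), 10312 bp upstream of the proximal site and 6915 bp inside the transcripts that start distally, had a signal of 399, rank 17 of 1725. It had 118 in replicate 1 and 271 in replicate 2. Its thresholded neighbours on either side were 3466 and 1845 bp away, with signals of 52.8 (peak 11) and 59.2 (peak 13). A candidate of 42.8 outside the list lay nearer, 11002 bp upstream of the proximal site. Among thresholded peaks alone, peak 12 therefore stood apart, at a height close to that of peak 2. The small extra exon of transcript RC, 57 bp at 2171142 to 2171198, lies next to it but not under it.

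The distal start site carried weaker peaks than the proximal one. Peak 17 (chr2L:2178591-2178846) had its summit 35 bp inside the transcript and a signal of 114, with 51.4 in replicate 1 and 64.9 in replicate 2. Peak 16 (chr2L:2178220-2178475), 406 bp inside, had 144, with 47.8 and 103. Both summits lay in the shared 5' UTR exon. Inside the intron, 3031 and 2414 bp from the distal site, peak 14 had 157 (47.4 in replicate 1, 107 in replicate 2) and peak 15 had 92.2 (29.7 and 51.7). Upstream of the gene, peak 19 (chr2L:2180161-2180416), 1535 bp before the distal site, had 171, the highest of the distal group, with 55.5 in replicate 1 and 114 in replicate 2. In each replicate peak 19 was therefore above both peaks that lay at the start site. Peak 20, 4110 bp before the distal site and in an exon of a noncoding gene, had 76.5, and peak 18, 889 bp before it, had 44.5.

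**Figure D1:**
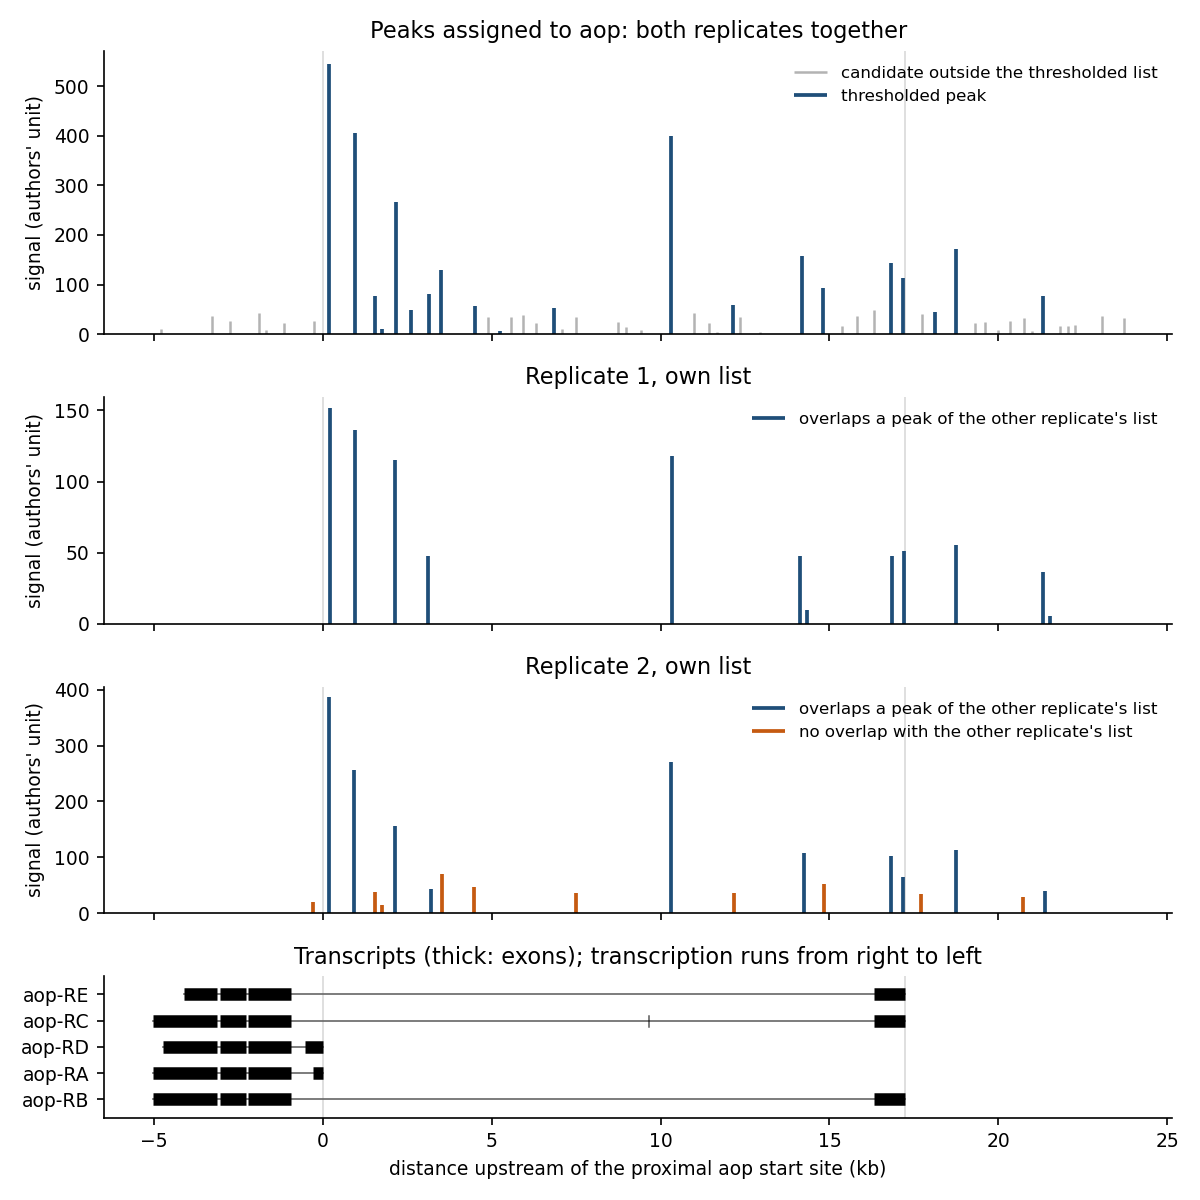
Peaks assigned to aop by distance upstream of the proximal start site (x axis, kb), with the deposited signal as the height of each line (y axis, authors' unit, a scale of its own in each panel). The upper panel shows the 20 thresholded peaks (blue) and the 36 other candidates (grey) of the list from both replicates, the next panels the 12 and 20 peaks of each replicate's own list, and the lowest panel the 5 transcripts, with pale vertical lines at both start sites. The peaks at 186, 944, 2160 and 10312 bp are the 4 tallest in every panel.

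By position, 3 of the 20 aop peaks (15.0%) lay within 500 bp of a start site, beside 52.2% of all thresholded peaks within 500 bp of any gene's start site. The 3 were peaks 1, 16 and 17. In introns and over 500 bp from any start site lay 14 of the 20 (70%), beside 31.1% of all peaks, and the remaining 3 were peaks 18, 19 and 20. Although few in number, the peaks at start sites included the strongest of the locus, and the intron held signals from 6.04 to 406.

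Other candidates at the locus filled the spaces between these peaks. Of the 56 candidates assigned to aop, 20 (35.7%) stood in the thresholded list, beside 1.17% of all candidates on the arms. These are neighbouring regions of 1 gene and not independent draws, so no interval is given. In replicate 1 the share was 12 of 49 (24.5%, beside 0.657%), and in replicate 2 it was 20 of 55 (36.4%, beside 0.994%). All 5 candidates in coding sequence and the 1 in the 3' UTR were outside the list, with a highest signal of 42.4. In it were 2 of 4 in the 5' UTR, 15 of 31 in introns and 3 of 15 upstream of the gene. Shares by place over all candidates on the arms are not given, so these small counts show no preference for a place. The 36 candidates that were left out had a median signal of 25.3 (range 4.13 to 49.1), against 15.7 for all left-out candidates on the arms, and 75% of them were above that value.

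Peaks 4 and 10 were in the list in spite of a low signal. Peak 4, 1756 bp upstream of the proximal site, had 11.3 and overlapped peak 3 (78.0) by 41 bp. In the replicates its place had 3.90 and 15.8. Peak 10, at 5241 bp, had 6.04, with no candidate in replicate 1 and 8.82 in replicate 2. By signal, the place of peak 4 ranked 87378 among the candidates of replicate 1 and 24013 among those of replicate 2. The score that the authors deposited beside the signal was 1000 for peak 4 and 851 for peak 10. It was 1000 for 16 of the 20 peaks.

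The aop peaks that stood in both replicates' own lists were mostly the stronger ones. Of the 20 thresholded peaks, 10 (50%) overlapped a peak of both replicates' own lists, beside 28.5% of all thresholded peaks. These were peaks 1, 2, 5, 7, 12, 14, 16, 17, 19 and 20, with a median signal of 164, against 54.7 for the other 10. The groups overlapped: the lowest of the shared peaks had 76.5 (peak 20) and the highest of the others 129 (peak 8). In replicate 1 peak 8 had 51.4 and was outside its own list, whereas peak 20 had 36.2 and was in it. Replicate 1's list was also the shorter, with 604 peaks on the arms beside 1122. A further 5 peaks, 3, 4, 8, 13 and 15, were in replicate 2's own list and only among the candidates of replicate 1. Peak 9 was in replicate 2's own list with nothing at its place in replicate 1, and peaks 6, 11 and 18 were candidates in both. No peak was in replicate 1's list without being in replicate 2's.

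In replicate 1, all 12 of its own aop peaks (100%) overlapped one of replicate 2, and in replicate 2, 10 of 20 (50%) overlapped one of replicate 1. Over the arms these shares were 80.3% and 42.9%, for lists of unequal length. Peaks 14 and 20 were each covered by a pair of overlapping peaks in replicate 1, of 47.4 and 9.90 at peak 14 and of 36.2 and 5.82 at peak 20. Among replicate 2's own peaks, 4 had no counterpart in the combined list, with signals from 20.6 to 36.5. The lowest of these had its summit 305 bp inside the proximal transcripts, in the 5' UTR of RD and in an intron of RA. Of the 17 aop peaks in the conservative list, 16 overlapped a thresholded one, and the other, upstream of the gene, had a signal of 7.06. Counted from the thresholded side, 17 of the 20 overlapped a conservative peak (85.0%, beside 77.1% of all thresholded peaks). Peaks 9, 10 and 18 overlapped none, and peak 4 overlapped only the conservative peak at peak 3, by 41 bp.

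The order of signals was much the same in both replicates. Over the 18 aop peaks with a candidate in each, Spearman's rho between the replicates' signals was 0.959, and over the 10 in both own lists it was 0.939. These points share the 2 libraries and the combined call that chose them. At the 10 shared peaks the summits of the replicates were 27.5 bp apart in the median (0 to 122 bp). The value listed for replicate 2 was 1.96 times the value listed for replicate 1 in the median (0.929 to 2.54), whereas over all 482 thresholded peaks in both own lists the median ratio was 1.36 (interquartile range 1.15 to 1.63). The strongest peak had the highest ratio, and peak 7, with 47.4 in replicate 1 and 44.0 in replicate 2, was the only one of the 10 with the higher value in replicate 1's list. The scaling between the replicates' lists is not stated, so the ratios describe the lists and not an amount of protein.

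**Figure D2:**
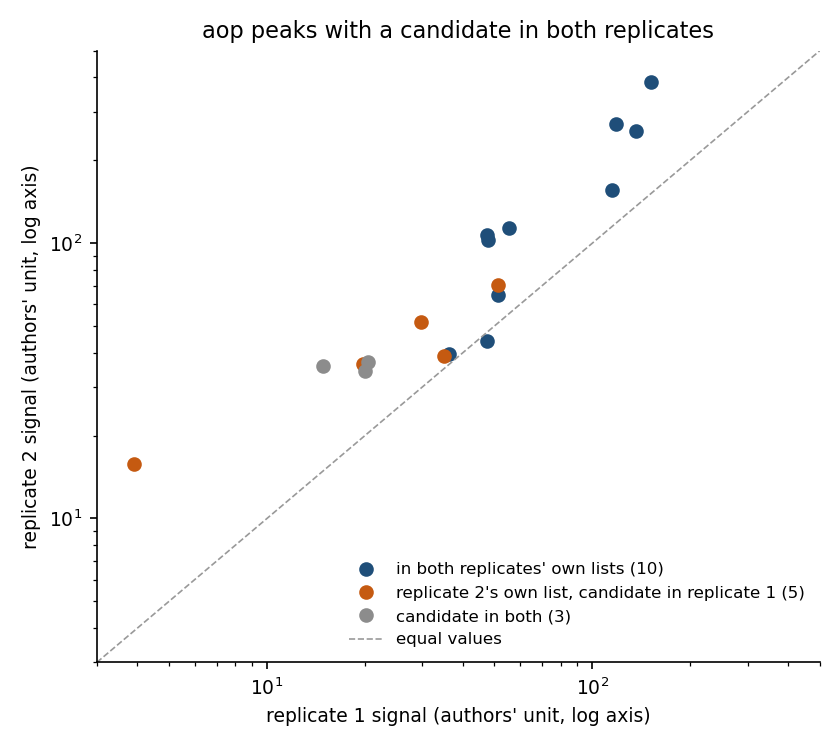
Deposited signal in replicate 1 (x axis) against replicate 2 (y axis) for the 18 aop peaks with a candidate in both, on log axes in the authors' unit, with a dashed line of equal values. Colours give the 10 peaks in both own lists, the 5 in replicate 2's own list alone and the 3 that were candidates in both. All points but 1 lie above the line, and the order along both axes is nearly the same (rho 0.959).

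CGGAA matches were present at some aop peaks and absent from the strongest. Within 100 bp of the summit, on either strand, 9 of the 20 held CGGAA (45.0%), beside 31.0% of all thresholded peaks and 30.4% of the other candidates. The 9 were peaks 2, 6, 7, 11, 12, 14, 16, 18 and 19, among them 6 of the 10 shared by both replicates. Peak 1, with no match, is printed above for comparison with peaks 2 and 12, which have 1 each. On either strand the shorter GGAA occurred 4 times at peak 1, 1 time at peak 2 and 5 times at peak 12. Its share over all thresholded peaks was not measured. The match of peak 12, 26 bp from the summit, reads ACCGGAAAT with its flanking bases, and that of peak 16, in the distal 5' UTR, reads GGCGGAAGT. Peaks 6 and 14 each held a pair of matches on opposite strands. In genome coordinates those of peak 6 lay at -63 and 7 bp from the summit, and its signal was 49.1. Those of peak 14 lay at -74 and 60 bp, and its signal was 157.

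The longer form CCGGAAGT, which contains CGGAA, occurred at 0 of the 20 peaks, beside 1.65% of all thresholded peaks. GAGAGAG, bound by the GAGA factor (Trl), occurred at peak 17 alone (beside 8.87%), and TATCGATA, the element bound by DREF at many housekeeping promoters, at none (beside 3.25%). CAGGTAG, the site of the early embryonic activator Zelda, occurred at peak 8 alone (beside 1.36%). Peak 8 had a signal of 129, with 51.4 in replicate 1 and 70.6 in replicate 2. A match is a string of letters and shows no binding of the factor named with it.

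No other gene collected so many peaks. Of 13968 protein-coding genes, 1308 (9.36%) had at least 1 thresholded peak and 24 (0.172%) had at least 4. The 20 peaks of aop were followed by 7 at sty, which encodes Sprouty, an antagonist of receptor tyrosine kinase signalling. Other genes with many peaks were sbb, a nuclear corepressor also called Brakeless, and pnt, the activating counterpart of aop, with 6 each, and the kinase gene Tlk with 5. The summed signal of the aop peaks was 2937, the highest of any gene, with sty second at 1845. The composition differed: at sty a single peak of 1468.5 made up most of the sum, whereas the strongest aop peak had 544. Sums grow with the number of peaks, and by the median signal per peak aop ranked 359 among bound genes. In their own lists, replicate 1 had 12 peaks at aop, 2 at sty and 2 at pnt, and replicate 2 had 20, 4 and 6.

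**Figure D3:**
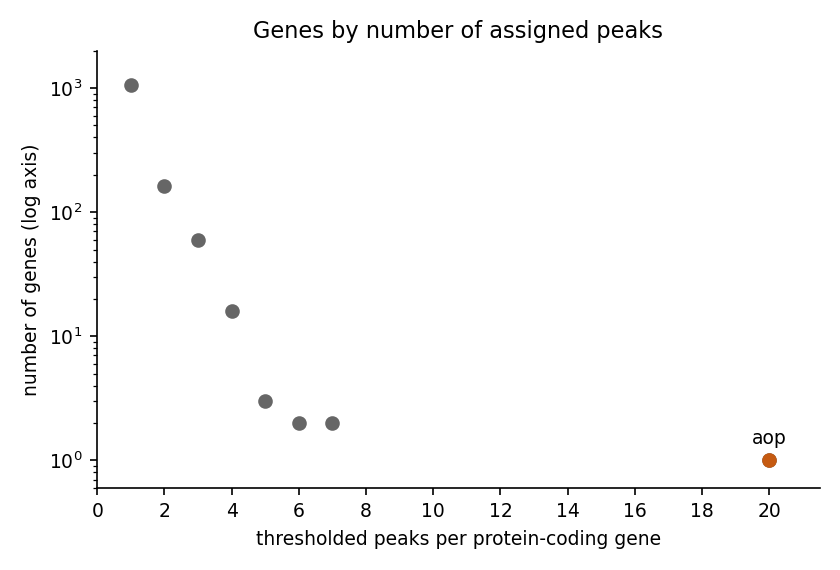
Number of protein-coding genes (y axis, log scale) by how many thresholded peaks were assigned to them (x axis), for the 1308 genes with at least 1. The orange point is aop with 20 peaks, and the next genes have 7.

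Candidate signal was also raised in the surroundings of the gene. Arm 2L was divided into windows of 5 kb counted from the proximal start site, and each window with at least 3 candidates was given its median candidate signal, thresholded peaks included. Of 37 such windows within 100 kb of the start site, 12 were above the 95th percentile of the arm, where 5% are by definition. All 12 lay between 20 kb on the coding side and 55 kb upstream. They include windows over the gene itself, such as that from 0 to 5 kb. Others lay wholly outside it, such as that from 25000 to 30000 bp upstream. No count without the gene's own windows is given. The window from 0 to 5 kb had a median of 79.2, beside 16.6 for the arm's median window, and 9 of its 10 candidates were thresholded peaks of aop. Over the stretch from 20 kb on the coding side to 70 kb upstream, whose limits were set after the values were seen, the median window had 31.0 (1.87 times the arm), and over the rest of the 200 kb examined it had 14.3 (0.866 times).

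Each replicate showed this by itself. In replicate 1, 10 of 35 windows were above its own 95th percentile, from 10 kb on the coding side to 45 kb upstream. In replicate 2, 16 of 35 were, from 35 kb on the coding side to 70 kb upstream. The stretch was at 1.55 times the arm in replicate 1 and 1.79 times in replicate 2. In any other run of 40 windows on the arms, the number of raised windows reached at most 12 in the combined list, 9 in replicate 1 and 9 in replicate 2, so the combined count was equalled elsewhere and those of the replicates were not.

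Candidates outside the thresholded list were raised as well. They also stood in the windows that set the limits of the stretch, so their values there are not separate support. With thresholded peaks left out, the 106 remaining candidates of the stretch had a median of 26.2, which was 1.61 times that of the arm, and the ratio was 1.49 in replicate 1 (101 candidates) and 1.65 in replicate 2 (102 candidates). The same was then measured 2 to 20 kb from the strongest peak of aop and of the 17 other genes with the strongest peaks. The ratio to all left-out candidates was 1.65 at aop and 0.836 to 1.29 at the other 17. In replicate 1 it was 1.53 against 0.858 to 1.22, and in replicate 2 it was 1.65 against 0.789 to 1.36. The value at aop was thus above the range of the others in each list. At aop this distance lies inside the stretch and takes in most of the gene body, with left-out aop candidates already described. The comparison is therefore not separate support and does not measure the surroundings apart from the gene. The number of DNA copies of this stretch in the tagged strain was not measured, and its part in the raised values, in the count of aop peaks and in the peaks of neighbouring genes was not tested.

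**Figure D4:**
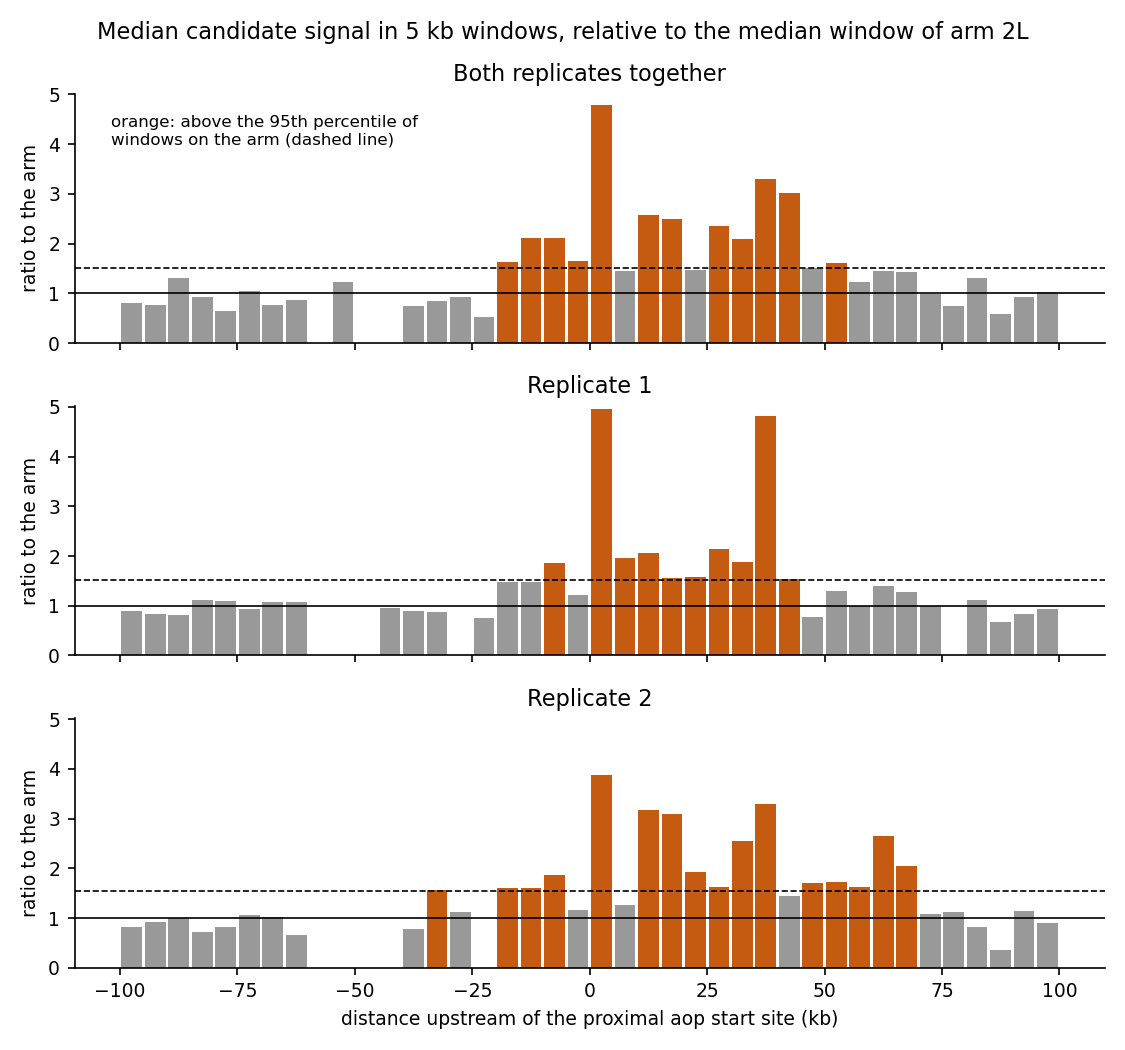
Median candidate signal in windows of 5 kb, divided by the median window of arm 2L (y axis), against distance upstream of the proximal aop start site (x axis, kb), for the combined list and each replicate. Orange bars are above the arm's 95th percentile (dashed line), the solid line marks the arm's median, and windows with fewer than 3 candidates have no bar. All raised windows but 1, in replicate 2, lie between 20 kb on the coding side and 70 kb upstream.

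Genes next to aop carried peaks within the same stretch. Of 22 other protein-coding genes with a start site within 50 kb of the aop gene body, 8 had a thresholded peak, 12 peaks in all, beside 9.36% of all protein-coding genes with at least 1. The strongest were a peak of 298 assigned to CG31668, 40875 bp upstream of the proximal aop start site (95.98 in replicate 1 and 199.8 in replicate 2), and one of 255.0 at papi, which encodes a partner of Piwi proteins, 60283 bp upstream (94.8 and 163). Tbcd, a tubulin folding cofactor gene, had 114.9 on the coding side, 14077 bp away (45.3 and 69.6). The remaining 5 genes had 45.3 to 87.2 at their peaks: COX7AL2, sau (a Golgi phosphoinositide-binding protein), CG10874, AIF (apoptosis-inducing factor) and mio (a regulator of TORC1). Replicate 2's own list added Glyp, glycogen phosphorylase, with 35.5 and CG15385 with 34.9. Tbcd, CG31668 and papi were in both replicates' own lists, whereas COX7AL2 and AIF were in the own list of replicate 1 and not of replicate 2.

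Genes that act with aop were looked up in a list of 60 protein-coding genes of its pathway, which was written with earlier results of these data known. Of these, 24 had a thresholded peak (40%), beside 9.36% of all protein-coding genes. Of the 60, 14 had a peak in replicate 1's own list and 21 in replicate 2's. The 21 include pros, listed as a reported aop target, which had no thresholded peak. The share of all protein-coding genes is given for the combined list only. Of 7 direct modulators of aop, 5 were bound: edl (161), also called Mae, a SAM-domain protein that binds aop and prevents its polymerisation; gro (158), the corepressor Groucho; pnt (107); CtBP (63.9), a corepressor; and emb (55.5), an exportin. The MAP kinase gene rl and the phosphatase gene mts had none. None of the 6 other ETS-domain genes listed had a peak, so within that family thresholded peaks were at aop and pnt.

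Among the EGF receptor, its ligands and feedback genes, 6 of 11 were bound: sty, spi (402, the ligand Spitz), aos (118, the secreted inhibitor Argos), S (111, Star, which carries Spitz through the cell), ru (89.6) and rho (50.2), the last pair rhomboid proteases that release the ligand. The receptor gene Egfr had no peak. Of 10 genes of the Ras and MAPK cascade, 3 were bound: RasGAP1 (209.8), Raf (206.0) and the adaptor gene dos (72.0). Of 12 genes reported as aop targets, 7 were bound at modest signals, ed (106), dpp (85.4), pyd (63.3), mid (59.6), wg (58.8), Delta (56.8) and twi (52.6). Of 10 genes of other receptor tyrosine kinases and their ligands, the ligand genes ths (89.0) and jeb (61.1) were bound, and of 4 DNA-binding rivals or partners only the repressor gene ttk (109). None of the 24 had more than 7 peaks, and apart from sty none exceeded the strongest peak of aop.

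**Figure D5:**
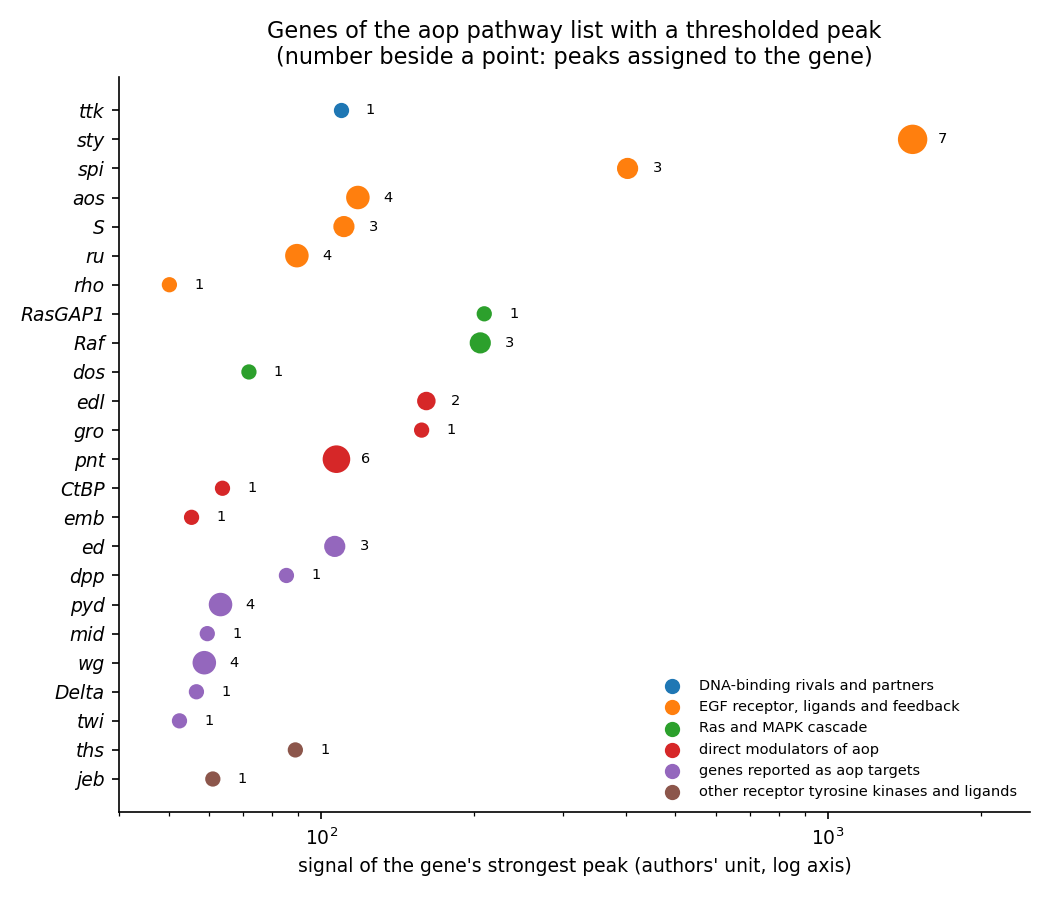
Signal of the strongest thresholded peak (x axis, authors' unit, log scale) for the 24 bound genes of the pathway list, grouped by role in colour. The number beside each point is the gene's count of peaks, from 1 to 7, and sty is the rightmost with 1468.5.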

How the data were processed

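Per the labels, ChIP-seq of aop-eGFP was done on 2 biological replicates of whole embryos, and the peak lists use dm6. The authors deposited ranked lists of candidates and thresholded lists; the ranking by irreproducible discovery rate (IDR) and the kind of list are as the file names give them. Which aligner and peak caller made them is not given in the sources used here. In each deposited list the score is the authors' whole-number IDR rank score (830 to 1000 in the thresholded list), the signal is their enrichment value in an unstated unit, and the global IDR of ranked lists is deposited as −log10. The summit is the deposited offset from the peak start. Ranked lists also hold 8 unlabelled columns on the inputs of each comparison, which were not used. Read depth is unknown, so no counting error of a signal can be given.

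Coordinates are 1-based. Gene models came from Ensembl release 115 and sequence from RefSeq (Release 6, the same assembly). Each summit was placed by gene feature and nearest protein-coding TSS, and lists were matched by an overlap of at least 1 bp. Per-replicate values came from each replicate's own list, or from its candidates where its list had none. With 1 group no test was made. Named genes were aop, genes within 50 kb, the 5 other genes with most peaks (1 of them is not reported here), and bound genes of the pathway list. Members and lists were chosen with earlier results of these data known; the raised stretch, the comparison with other strong loci and the low-signal check were chosen after values were seen. Functions were tested on simulated data. Python 3.11.15, pandas 2.3.3, NumPy 2.4.6, SciPy 1.17.1 and matplotlib 3.10.9 were used.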

Additional observations from a re-analysis of the deposited data

How the results depend on the processing

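Of 43 alternatives tried, 31 left the value within 1.5 times of that reported. The 43 count the window result both as a signal and as its ratio to the arm. Every alternative for the ratio was among the 31. The count of 20 aop peaks became 13 when only peaks at or above the list's median signal were kept, and ranged from 12 (without replicate 2) to 20 (without replicate 1). Peaks at a start site became 5 with a window of 1000 bp, and ranged from 3 to 5 when either replicate was left out. Intron peaks ranged from 6 to 12 in the same way, the summed signal from 822.8 to 1921.8, the share of candidates in the list from 24.5% to 36.4%, the median window signal of the raised stretch from 14.8 to 20.4, peaks with CGGAA from 6 to 7 and bound pathway genes from 14 (without replicate 2) to 21. Single-replicate signals have scales of their own, so the summed and window signals are not comparable with the combined list, whereas the ratio to the arm stayed between 1.55 and 2.07. CGGAA was found at 5 aop peaks within 50 bp (25%, beside 18.7% of all peaks) and at 14 within 250 bp (70%, beside 57.5%). Within 100 bp it was found at 6 of 12 aop peaks without replicate 2 and at 7 of 20 without replicate 1. The share over all peaks of those single-replicate lists is not given here. The cause was not tested where the construction of the alternative does not give it. No paired analysis was possible because there is only 1 group and no result comes from a test. Unknown depth limits what the absence of a peak means.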

Other observations

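The low signals of aop peaks 4 and 10 belong to a small class in the whole list. On the arms 24 thresholded peaks had a signal under 20, and 23 of them (95.8%) had a stronger thresholded peak within 500 bp. In the replicates' own lists the same held for 8 of 12 peaks under 20 in replicate 1 (66.7%) and 8 of 10 in replicate 2 (80%). A weak peak has more peaks stronger than itself to begin with, so no share of the other peaks is set beside these. Peak 4 was one of the 23, with peak 3 at 215 bp. Peak 10, whose nearest stronger neighbour was peak 9 at 736 bp, was the single exception. The check was made after the values were seen.

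The 4 peaks of replicate 2's own list that had no counterpart in the combined list lay 17724, 7490, 20737 and -305 bp upstream of the proximal start site, with signals of 34.3, 36.5, 28.7 and 20.6 there. Among the candidates of the combined list the same places had 41.5, 34.1, 33.1 and 27.3. In replicate 1 the first place had 2.62, the second held no candidate and the others had 8.15 and 9.16. These places were chosen for standing in replicate 2's own list and not in the combined one, and none was in replicate 1's own list. The direction of the difference is therefore not a result.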
